A study of Mus musculus with 4 samples.

Results

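The vacuolar proton pump (V-ATPase) and the cathepsins were examined together as the acidifying and the proteolytic machinery of the lysosome. Members were taken by gene symbol: every gene whose symbol begins with Atp6v or Atp6ap, and every cathepsin gene named Cts plus a single letter, on rows of the array that carry a single symbol. This gave 41 genes of 19938, of which 24 encode V-ATPase subunits (13 of the V1 sector, 8 of the V0 sector and 3 accessory subunits) and 17 encode cathepsins. The proton ring gene Atp6v0c and the cathepsin gene Ctsm were not analysed here.

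All cells were macrophages grown from C57BL/6N mouse bone marrow with M-CSF (10 ng/mL), the growth factor that drives this lineage, and were collected on day 9. M1 cells were stimulated for 48 h with 10 ng/mL interferon-γ, and M2 cells for the same time with 20 ng/mL interleukin-4 (IL-4). For 24 h each phenotype was given either vehicle or the inflammatory cytokine interleukin-1α (IL-1α) at 10 ng/mL. The study asked how the responses of M1 and M2 cells to IL-1α differ. There was 1 array for each of the 4 groups, so no group has a replicate, and the labels do not say whether the arrays came from separate cultures or animals. They name no unpolarised control, so a difference between M1 and M2 cannot be assigned to either cytokine.

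The V-ATPase is a rotary machine. Its cytosolic V1 sector hydrolyses ATP, its membrane V0 sector carries protons, and a rotor joins them; the pump acidifies endosomes, lysosomes and, in osteoclasts, the space beneath the cell. Cathepsins are proteases of several catalytic classes, most of which are made as inactive precursors and become active in that acid compartment, where macrophages use them to digest what they engulf and to prepare antigens.

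The stretches of 250 bases before the annotated transcription start are shown for genes on which the results turn. Whether each annotated start is used in these cells was not tested. Ctsk and Ctss are direct neighbours on one chromosome, and Ctsk had the largest phenotype difference among members while that of Ctss was not called. Ctsl, Ctsf and Atp6v0a1 were higher in M2, Ctsc was higher in M1, and Atp6v1a encodes the catalytic subunit of the pump. Sequences are from RefSeq on build GRCm38.p6, 5′ to 3′ on the strand of the gene, and capitals mark matches to the motifs described after them.
Ctsk, chr3:95498960-95499209, plus strand: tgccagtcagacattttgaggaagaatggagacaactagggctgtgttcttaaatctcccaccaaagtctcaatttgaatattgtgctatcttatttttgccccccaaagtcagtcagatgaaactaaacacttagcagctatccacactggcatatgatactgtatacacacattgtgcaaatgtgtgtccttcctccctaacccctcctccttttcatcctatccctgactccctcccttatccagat
Ctss, chr3:95526536-95526785, plus strand: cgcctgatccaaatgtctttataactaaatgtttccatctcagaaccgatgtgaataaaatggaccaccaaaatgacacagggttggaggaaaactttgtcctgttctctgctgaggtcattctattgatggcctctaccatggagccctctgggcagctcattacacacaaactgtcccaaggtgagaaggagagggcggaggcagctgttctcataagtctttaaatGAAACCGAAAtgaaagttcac
Ctsl, chr13:64370521-64370770, minus strand: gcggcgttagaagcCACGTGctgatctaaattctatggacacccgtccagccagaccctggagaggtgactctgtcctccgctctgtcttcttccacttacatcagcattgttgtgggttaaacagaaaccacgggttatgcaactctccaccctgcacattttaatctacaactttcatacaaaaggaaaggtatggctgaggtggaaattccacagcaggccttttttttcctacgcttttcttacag
Ctsf, chr19:4854915-4855164, plus strand: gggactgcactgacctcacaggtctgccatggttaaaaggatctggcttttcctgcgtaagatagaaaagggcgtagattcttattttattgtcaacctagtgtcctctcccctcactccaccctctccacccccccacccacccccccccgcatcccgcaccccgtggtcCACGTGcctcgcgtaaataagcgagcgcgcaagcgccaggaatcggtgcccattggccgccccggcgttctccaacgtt
Ctsc, chr7:88277835-88278084, plus strand: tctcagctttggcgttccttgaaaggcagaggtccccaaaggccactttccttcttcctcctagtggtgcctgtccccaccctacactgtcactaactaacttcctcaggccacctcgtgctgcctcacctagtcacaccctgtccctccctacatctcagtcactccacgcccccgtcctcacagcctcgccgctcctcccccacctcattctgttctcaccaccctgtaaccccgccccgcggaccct
Atp6v0a1, chr11:101010148-101010397, plus strand: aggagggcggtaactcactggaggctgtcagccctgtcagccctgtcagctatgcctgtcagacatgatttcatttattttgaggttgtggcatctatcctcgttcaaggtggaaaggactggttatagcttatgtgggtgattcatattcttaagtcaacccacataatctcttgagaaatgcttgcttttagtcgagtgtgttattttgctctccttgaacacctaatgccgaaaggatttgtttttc
Atp6v1a, chr16:44139260-44139509, minus strand: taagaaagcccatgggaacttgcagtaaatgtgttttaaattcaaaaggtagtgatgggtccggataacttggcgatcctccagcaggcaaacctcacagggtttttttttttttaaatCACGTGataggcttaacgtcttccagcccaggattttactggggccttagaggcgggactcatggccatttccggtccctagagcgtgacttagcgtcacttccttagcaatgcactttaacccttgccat

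Promoter entries were found for 30 of the 41 members (32 promoters), and 4 motifs were searched on both strands in the 250 bases before the start. CACGTG, the E-box at the core of the element bound by the lysosomal transcription factor TFEB, was present before 6 members (Atp6v0b, Atp6v1a, Ctsa, Ctsd, Ctsf and Ctsl), against 6.02% of all 32851 promoters. Of the 6, Ctsf and Ctsl differed by over 2-fold between the phenotypes with vehicle, and Atp6v0b differed by -0.03 log2 units. The full CLEAR element, CACGTG with GT before it and AC after it, was in no member window and in 0.24% of all promoters. A STAT6-type motif, TTC and GAA with 4 bases between them, was before Atp6v0e2 alone (5.85%). A core of the interferon-stimulated response element, GAAA repeated after 2 bases, was before Ctss and Atp6v1d (2.98%). These matches are letters in a window and were not tested as sites.

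Levels are log2 signals normalised by the authors with RMA, and differences are in log2 units, where 1 equals 2-fold. A level was counted as measurable when it reached a floor of 7.617, the median gene value across the 4 arrays. Of the 41 members, 30 reached the floor on at least 1 array and 27 on all 4. Over all genes, 10625 of 19938 reached the floor on at least 1 array. Ctsk reached it on the M2 arrays alone, so it entered the counts only through the phenotype in which it is high. The 11 members under the floor everywhere read 4.54 to 7.40. They were the tissue-restricted subunits Atp6v1b1, Atp6v1c2, Atp6v1g3, Atp6v0a4 and the accessory-like Atp6ap1l, the cathepsins Ctse, Ctsg and Ctsw, and the placental cathepsins Ctsj, Ctsq and Ctsr. Their M2 minus M1 differences with vehicle ran from -0.10 to 0.29.

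**Figure D1:**
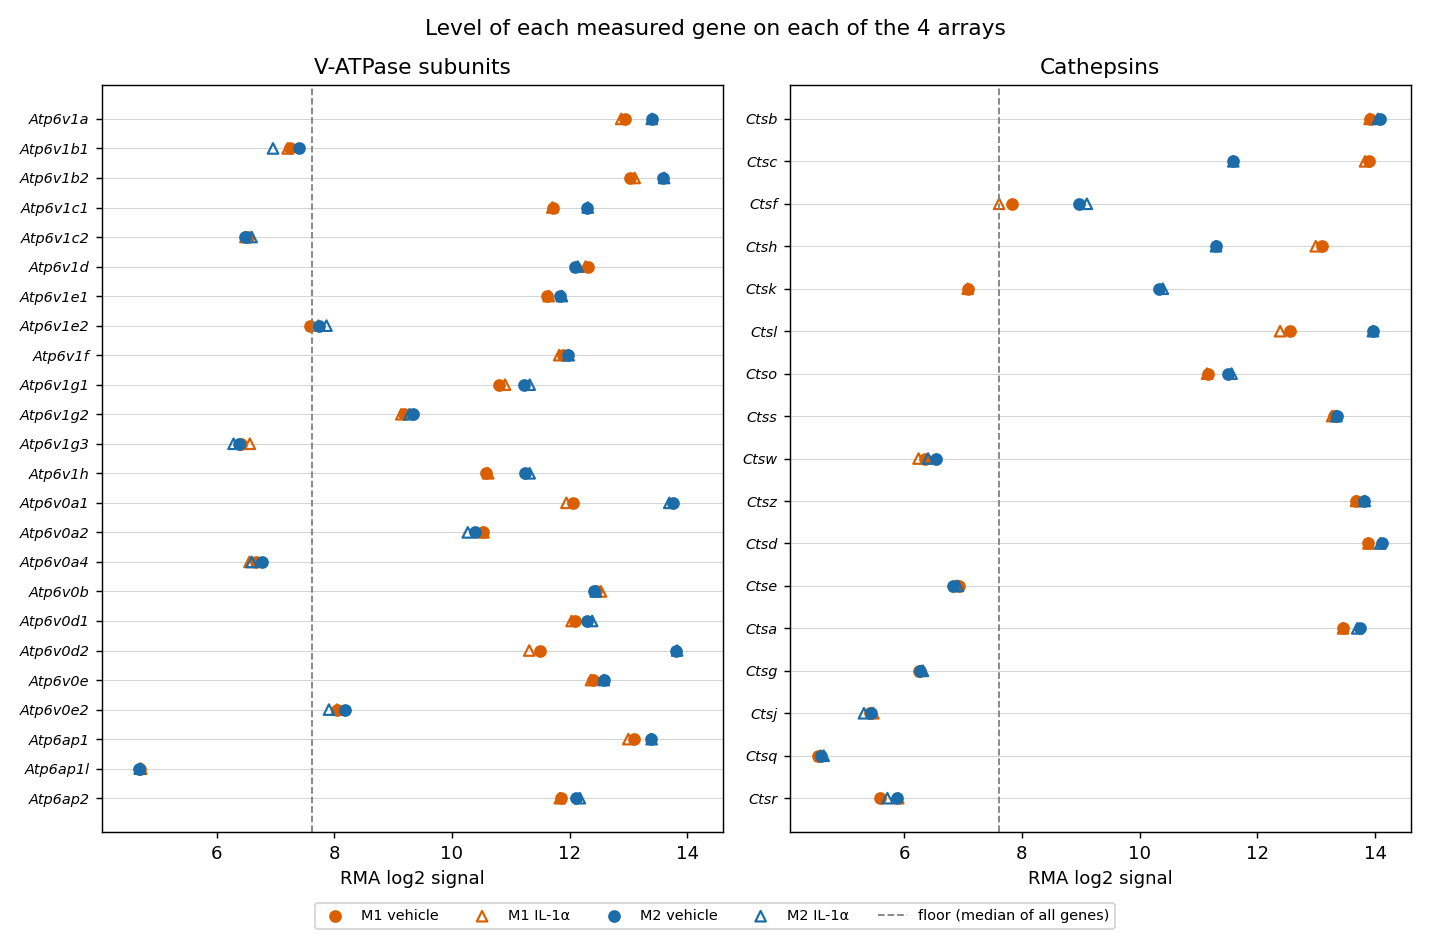
RMA log2 signal (x axis) of each of the 41 members (rows) on the 4 arrays, with M1 in orange, M2 in blue, filled circles for vehicle and open triangles for IL-1α; the dashed line is the floor of 7.617. Markers of 1 colour nearly coincide in most rows, Ctsk, Ctsl, Ctsf, Atp6v0a1 and Atp6v0d2 lie higher in M2, Ctsc and Ctsh lie higher in M1, and 11 genes lie left of the floor on all arrays.

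The labelled phenotypes carried their usual markers. Arg1 read 12.48 in M2 and 6.75 in M1 with vehicle, Retnla 12.67 and 4.91, and Nos2 6.79 and 13.00. All 8 macrophage markers reached the floor on all 4 arrays. Their M2 minus M1 differences with vehicle were above 0 for 4 and below 0 for 4. The lowest were Fcgr1 (-3.06), Cd14 (-2.33) and Mertk (-0.90), and the highest Csf1r (0.56), Cd68 (0.39) and Lyz2 (0.38). Of the other cell types, 0 of 7 T and NK cell, 0 of 2 B cell and 0 of 4 mast cell markers reached it on any array, against 2 of 4 fibroblast, 3 of 5 dendritic cell, 5 of 8 neutrophil and 7 of 9 osteoclast markers. Since 10625 of all 19938 genes did so, reaching the floor does not by itself show that a cell type was present. Array medians over all 35556 rows were 7.32 to 7.38. The highest values were 14.40 to 14.47, and 5 members on each M1 array and 8 on each M2 array lay within 1 log2 unit of that top, where differences may be compressed.

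Of the 30 members at the floor, 5 had a vehicle level in M2 over 2-fold that in M1, and 2 were over 2-fold lower. The higher ones were the pump subunits Atp6v0d2 and Atp6v0a1 and the cysteine cathepsins Ctsk, Ctsl and Ctsf. The lower ones were the cysteine cathepsins Ctsc and Ctsh. Of all 10489 genes at the floor, 7.03% were 2-fold higher and 6.83% 2-fold lower. The members' 16.7% higher was above the former and their 6.67% lower near the latter. The median member difference was 0.23 at the floor and 0.18 over all 41, against 0.01 over all genes at the floor. The IL-1α arrays, which share no array with the vehicle pair, gave 5 higher and 2 lower as well, against backgrounds of 8.15% and 6.06%. At 1.5-fold the vehicle arrays gave 7 higher, adding Atp6v1c1 and Atp6v1h, where 14.1% of all genes were that much higher.

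A limma model with phenotype and treatment as additive terms tested the difference common to both treatments. It called 20 of the 30 members higher in M2 and 4 lower (adjusted p under the threshold of 0.05 over all 10625 genes tested), where 33.2% of all genes were called higher and 29.3% lower. The members' shares were 66.7% and 13.3%. Of the 20, 15 were under 2-fold, with effects of 0.15 to 0.69. These p-values set each effect against the departure from additivity in 4 arrays, with 1 residual degree of freedom per gene and 10.05 borrowed from the prior. They measure no spread between cultures.

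**Figure D2:**
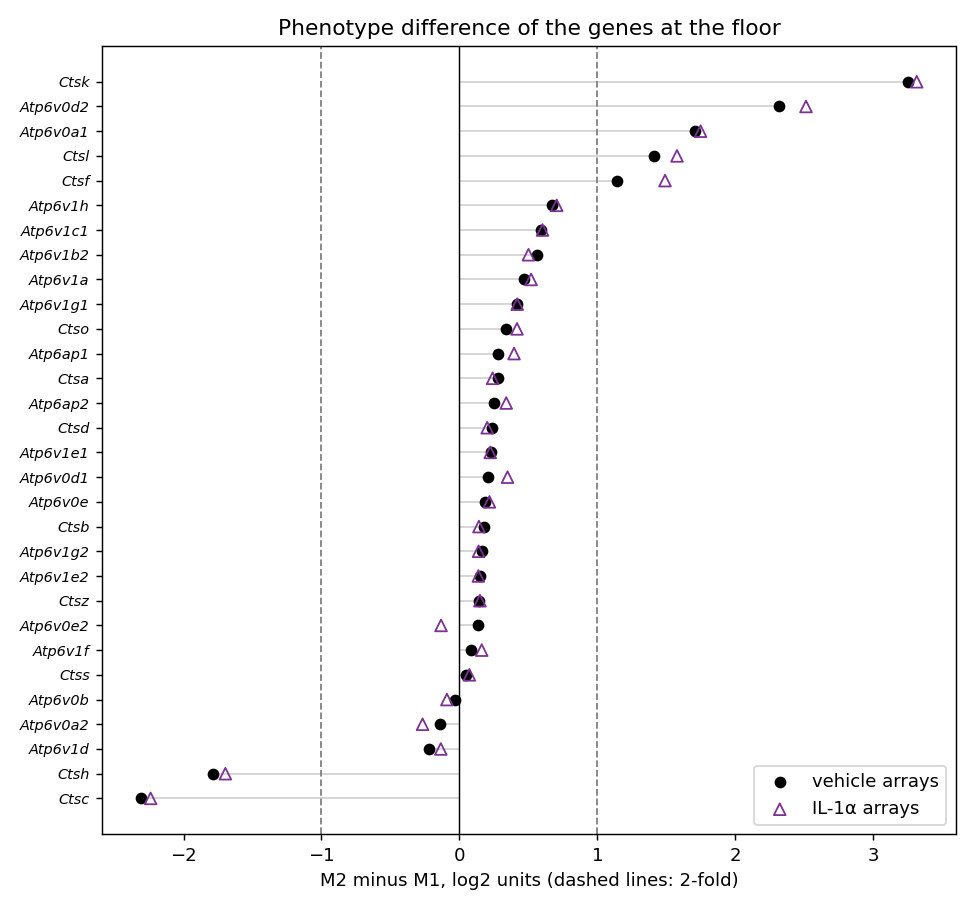
M2 minus M1 difference in log2 units (x axis) for the 30 members at the floor (rows), with filled circles for the vehicle arrays and open triangles for the IL-1α arrays; dashed lines mark 2-fold. The differences run from -2.31 (Ctsc) to 3.25 (Ctsk) with vehicle, and circle and triangle lie within 0.35 of each other in every row.

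In the V1 sector 0 of the 10 measurable subunits were 2-fold apart between the phenotypes, with vehicle or with IL-1α. Of all genes, 7.03% were 2-fold higher and 6.83% lower with vehicle, and 8.15% and 6.06% with IL-1α. A count of 0 among 10 is therefore not far from the background. By limma, 6 of these subunits passed the threshold with a positive effect and 1 with a negative effect, as did 33.2% and 29.3% of all genes. Atp6v1a, the catalytic A subunit, read 12.94 in M1 with vehicle, 12.88 in M1 with IL-1α, 13.41 in M2 with vehicle and 13.40 in M2 with IL-1α. Both M2 arrays lay above both M1 arrays, with a limma effect of 0.49 ± 0.04 (SE; adjusted p = 1.18e-06). Its nucleotide-binding partner Atp6v1b2 read 13.02 and 13.10 in M1 and 13.58 and 13.61 in M2. Atp6v1h, which bridges the sectors and restrains ATP hydrolysis in the detached V1, had the largest effect in the sector at 0.69 ± 0.06 (limma adjusted p = 1.69e-06), from 10.58 and 10.61 in M1 to 11.25 and 11.32 in M2.

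The stalk subunits C1, G1 and E1 were among those called higher. Atp6v1c1, which holds V1 to V0 in the assembled pump, read 11.71 and 11.70 in M1 and 12.30 and 12.31 in M2 (limma effect 0.60, adjusted p = 1.17e-06). Atp6v1g1 read 10.81 and 10.90 in M1 and 11.23 and 11.32 in M2, and Atp6v1e1 11.61 and 11.64 in M1 and 11.83 and 11.87 in M2. In all 3 genes both M2 arrays lay above both M1 arrays. The rotor subunits differed from these: Atp6v1d was called slightly lower in M2 (-0.18 ± 0.05, limma adjusted p = 0.0106), and Atp6v1f was not called (0.12, limma adjusted p = 0.067). Both probe sets of Atp6v1g1 gave a higher level in M2 (0.45 and 0.39 with vehicle), and both of Atp6v1f gave a small positive difference (0.08 and 0.09).

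Paralogous V1 subunits could be set beside each other by their differences. Atp6v1b1, the kidney-type B isoform, read 7.25 and 7.21 in M1 and 7.40 and 6.96 in M2 (vehicle first, then IL-1α, here and where 4 values follow in the order M1, M2), under the floor on all 4 arrays, while Atp6v1b2 was measurable on all. Atp6v1c2 (6.49 to 6.59) and Atp6v1g3 (6.29 to 6.56) were likewise under the floor beside Atp6v1c1 and Atp6v1g1. Atp6v1g2, a neuronal isoform, read 9.18, 9.14, 9.34 and 9.28, and limma did not call its effect of 0.15. Atp6v1e2, a testis isoform, lay close to the floor at 7.59, 7.73, 7.73 and 7.87. The called V1 differences thus lay in A, B2, C1, E1, G1, H and D.

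The V0 sector held the largest differences of the pump, in single isoforms. Atp6v0d2, the d isoform known from osteoclasts and needed for their fusion, read 11.49 in M1 with vehicle, 11.31 in M1 with IL-1α, 13.81 in M2 with vehicle and 13.83 in M2 with IL-1α. The M2 arrays were 4.99-fold higher with vehicle and 5.71-fold higher with IL-1α, and the limma effect was 2.42 ± 0.06 (adjusted p = 9.88e-12). Its ubiquitous paralog Atp6v0d1, which couples the rotor to the proton ring, read 12.08 and 12.03 in M1 and 12.29 and 12.38 in M2. The limma effect of Atp6v0d1 was 0.28 ± 0.05 (adjusted p = 0.000901).

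The a subunit forms the proton path and directs the pump to its membrane. Atp6v0a1 read 12.06 and 11.94 in M1 (vehicle, IL-1α) and 13.76 and 13.69 in M2. It was 3.26-fold higher in M2 with vehicle and 3.36-fold with IL-1α, with a limma effect of 1.73 ± 0.05 (adjusted p = 3.10e-11). Its M2 value came within 0.70 of the highest signal on the array, and that of Atp6v0d2 within 0.64, so both differences may be understated. Atp6v0a2, known from the Golgi and endosomes, averaged 10.53, 10.54, 10.39 and 10.27 and was called slightly lower (-0.20, limma adjusted p = 0.0244), but its 2 probe sets disagreed. One differed by -0.52 and the other by 0.24 with vehicle, so the gene's direction rests on the former. Tcirg1, the a3 isoform of lysosomes and osteoclasts, is no member by symbol; it read 13.45 on both M1 arrays, 13.38 in M2 with vehicle and 13.33 in M2 with IL-1α, and was not called. Atp6v0a4, the kidney-type isoform, was under the floor on all arrays.

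The rest of the V0 sector and the accessory subunits differed little. Atp6v0e read 12.39, 12.36, 12.58 and 12.58 and was called higher by 0.20 (limma adjusted p = 0.00336), and Atp6v0e2 was not called (8.05, 8.04, 8.19 and 7.91). Atp6v0b, a ring subunit, read 12.45, 12.53, 12.42 and 12.44, and its effect of -0.06 was not called (limma adjusted p = 0.296). Atp6ap1 (Ac45), which assists assembly and trafficking of the pump, had a limma effect of 0.34 ± 0.05 (adjusted p = 4.66e-05). Atp6ap2, also known as the prorenin receptor, had one of 0.30 ± 0.05 (adjusted p = 0.000511).

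Of the 9 measurable genes among the 10 non-placental cysteine cathepsins, 3 were 2-fold higher in M2 and 2 were 2-fold lower with vehicle, against 7.03% and 6.83% of all genes. Ctsk, the collagen-degrading protease of osteoclasts, read 7.08 on both M1 arrays, 10.33 in M2 with vehicle and 10.39 in M2 with IL-1α. Both M1 values lay under the floor, so the measured difference of 3.25 with vehicle is a description and uncertain in size. Ctss, which degrades the invariant chain of MHC class II and lies next to Ctsk on the chromosome, read 13.30, 13.27, 13.34 and 13.34, and its effect of 0.06 was not called (limma adjusted p = 0.239).

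Ctsl, a broad endopeptidase, read 12.55 in M1 with vehicle, 12.39 in M1 with IL-1α and 13.96 on both M2 arrays. It was 2.66-fold higher in M2 with vehicle and 2.98-fold with IL-1α, with a limma effect of 1.49 ± 0.05 (adjusted p = 1.94e-10). The M2 value came within 0.50 of the highest signal on the array, so the difference may be understated. Ctsf, a cathepsin able to process the invariant chain in macrophages, read 7.82, 7.61, 8.97 and 9.10. Its M1 values lay at the floor, one just above and one just under, and its limma effect was 1.32 ± 0.11 (adjusted p = 5.75e-07).

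The opposite pattern was seen in Ctsc and Ctsh, both exopeptidases that act from the amino end. Ctsc (dipeptidyl peptidase I, which activates granule serine proteases) read 13.89 in M1 with vehicle, 13.83 in M1 with IL-1α, 11.58 in M2 with vehicle and 11.59 in M2 with IL-1α. It was 4.95-fold higher in M1 with vehicle, and the limma effect was -2.27 ± 0.05 (adjusted p = 4.68e-12). Ctsh, an aminopeptidase, read 13.09 and 12.99 in M1 and 11.30 on both M2 arrays, 3.46-fold higher in M1 with vehicle (limma effect -1.74 ± 0.05, adjusted p = 9.42e-11). No M2 array reached an M1 array for either gene.

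The remaining cathepsins differed far less. The carboxypeptidases Ctsb and Ctsz had limma effects of 0.16 and 0.15, Ctso one of 0.38, the aspartic protease Ctsd one of 0.22 and the serine carboxypeptidase Ctsa, which protects lysosomal β-galactosidase and neuraminidase, one of 0.26. All 5 were called higher in M2 (limma adjusted p from 0.000131 for Ctsa to 0.0058 for Ctsz). Ctsd read 13.88 and 13.89 in M1 and 14.12 and 14.09 in M2, and Ctsb 13.91 on both M1 arrays and 14.09 and 14.05 in M2. Both genes lay near the top of the arrays, where a larger difference could be hidden.

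Markers of other cell types stood beside these results as follows. Ctsk and Atp6v0d2 are themselves osteoclast genes. Of 9 other osteoclast markers, 7 reached the floor and 5 were 2-fold higher in M2 with vehicle, against 7.03% of all genes. These were Dcstamp (4.60), Itgb3 (4.16), Mmp9 (3.23), Ocstamp (1.76) and Acp5 (1.44). Dcstamp and Itgb3 reached the floor on the M2 arrays alone, so they entered the count through the phenotype in which they are high and their differences are uncertain in size. The receptor gene Tnfrsf11a (-0.73) and Nfatc1 (-0.26) were called lower by limma, as were 29.3% of all genes. Nfatc1 lay close to the threshold (limma adjusted p = 0.0497). Calcr and Oscar were under the floor on all arrays. The summed signal of the list was 12.61 and 12.66 in M1 and 14.15 and 14.27 in M2 on the log2 scale. Of the 5 dendritic cell markers, Clec9a (9.97 and 9.59 in M1, 5.62 and 5.71 in M2) and Xcr1 (-1.96 with vehicle) were lower in M2, as Ctsc and Ctsh were, and reached the floor on the M1 arrays alone. Zbtb46 differed by 0.48, Flt3 and Siglech were under the floor throughout, and the list's summed signal was 10.77 and 10.51 in M1 and 9.27 and 9.24 in M2. Of 8 neutrophil markers, 5 reached the floor in M2 alone, with Ngp highest (9.92 with vehicle and 9.93 with IL-1α). The rest of the 5 lay close to the floor in M2. Ltf read 8.04 with vehicle and 8.01 with IL-1α. In the same order Mpo read 7.91 and 7.64, S100a9 7.86 and 7.77, and S100a8 7.81 and 7.62. The summed signal of the 8 was 9.99 and 10.05 in M1 and 11.18 and 11.11 in M2. The granule protease genes Elane, Prtn3 and Ctsg were under the floor throughout. The part of other cells in these differences was not tested, and in bulk RNA fewer cells of a type and less RNA per cell cannot be told apart.

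Differences between IL-1α and vehicle were small for the members in either phenotype. No member differed by 1.5-fold, in M1 (29 at the floor) or in M2 (30 at the floor). Among all genes, 0.02% were 1.5-fold higher in M1 and 0.04% lower, and 0.875% were 1.5-fold higher in M2 and 0% lower, so a count of 0 among the members is close to that background. In the same M2 arrays the response genes Acod1 and Il1b differed by 3.90 and 2.56, up from levels under the floor.

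In M1 the 3 highest differences belonged to Atp6v1e2 (0.14), Atp6v1g1 (0.10) and Atp6v1b2 (0.09), and the 3 lowest to Ctsf (-0.21), Atp6v0d2 (-0.18) and Ctsl (-0.16). The standard deviation over all genes at the floor was 0.11 in that pair, and 24 of the 29 members lay within it, as did 72.7% of all genes. Of the 29 differences 20 were below 0, against 5089 of 10012 over all genes. In M2 the highest were Ctsf (0.14), Atp6v1e2 (0.13) and Atp6v1g1 (0.09), and the lowest were Atp6v0e2 (-0.28), Atp6v0a2 (-0.12) and Atp6v0a1 (-0.07). There the standard deviation over genes was 0.18, and 29 of 30 members lay within it, as did 80% of all genes. Of the 30 differences 20 were above 0, as were 7123 of 10284 over all genes.

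With limma, no member passed for a treatment term shared by M1 and M2, and none had an unadjusted p under 0.05 (smallest adjusted p = 0.843). Over all 10625 genes it also called 0, with 646 at an unadjusted p under 0.05. The difference of responses, M2 minus M1, ran from -0.27 (Atp6v0e2) to 0.35 (Ctsf) among members at the floor and reached 1 in none, against 0.32% of all genes at or above 1. None reached 1.5-fold either, where 1.02% of all genes were that much higher. With 1 array per group this contrast has no test.

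**Figure D3:**
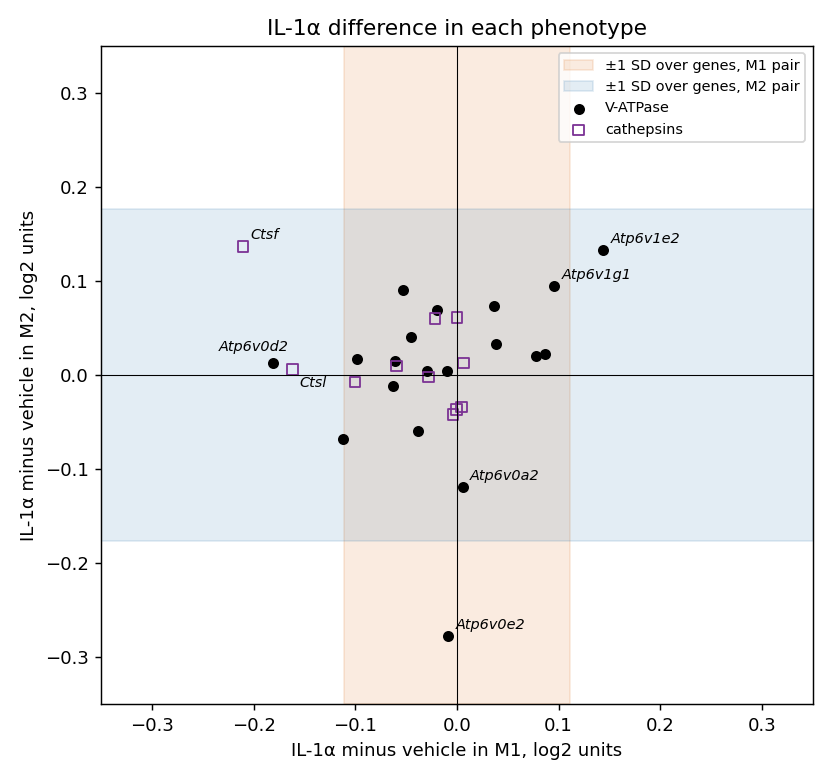
IL-1α minus vehicle in log2 units in M1 (x axis) and in M2 (y axis) for the 30 members at the floor on any array, with circles for V-ATPase subunits and squares for cathepsins; the bands span 1 standard deviation over all genes at the floor on either side of 0 (0.11 in M1, 0.18 in M2). Most points lie inside both bands; Atp6v0e2 (-0.28 in M2) lies outside the M2 band, Ctsf, Atp6v0d2 and Ctsl lie left of the M1 band with Atp6v0a1 at its edge, and Atp6v1e2 lies right of it.

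The phenotype differences were therefore nearly equal with and without IL-1α. Across the 30 members at the floor, the vehicle and IL-1α differences had a Pearson r of 0.995, and 0.981 without Ctsk, Ctsc, Ctsh and Atp6v0d2. The points share the phenotype, the probes and the joint normalisation, and genes are not independent replicates. The sign agreed in 29 of 30 members, the exception being Atp6v0e2 (0.14 and -0.13).

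The surrounding lysosomal genes were read from lists. Lysosomal hydrolases had 6 of 26 measured genes 2-fold higher in M2 with vehicle and 1 lower, against 7.03% and 6.83% of all genes, with a median of 0.50. The highest were the acid nuclease Dnase2a (1.87), the acid phosphatase Acp5 (1.44) and the β-glucuronidase Gusb (1.17). The lowest were the acid phosphatase Acp2 (-1.10), the thioesterase Ppt1 (-0.98) and the neuraminidase Neu1 (-0.34). With IL-1α, 7 of the 26 were 2-fold higher and 0 lower (8.15% and 6.06% of all genes), and Acp2 differed by -0.92. limma called 18 of the 26 higher and 3 lower (33.2% and 29.3% of all genes).

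Sorting and processing genes had 3 of 9 that were 2-fold higher and none lower with vehicle (7.03% and 6.83% of all genes). With IL-1α, 2 of 9 were higher and none lower (8.15% and 6.06% of all genes), and Igf2r differed by 0.96. The 3 higher with vehicle were the sorting receptor Sort1 (2.81), the proprotein convertase Furin (1.07) and the mannose 6-phosphate receptor Igf2r (1.01). Igf2r carries hydrolase precursors to endosomes. The asparaginyl protease Lgmn, which processes cathepsins, differed by 0.11, and the lowest was the invariant chain Cd74 (-0.28). limma called 6 of the 9 higher and 2 lower (33.2% and 29.3% of all genes).

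Of 9 measured cathepsin inhibitors, 4 reached the floor. Cst7 (cystatin F, an inhibitor that acts inside lysosomes and can restrain Ctsc) read 12.72 and 12.56 in M1 and 10.41 and 10.67 in M2. With vehicle its difference was -2.31, beside -2.31 for Ctsc, and with IL-1α it was -1.89, beside -2.24 for Ctsc. Cst3 (cystatin C) differed by 0.28, Cstb by -0.13 and Serpinb6a by 0.73. Of the 4 inhibitors, limma called 2 higher and 2 lower (33.2% and 29.3% of all genes). The list of 10 assembly and regulation genes also holds Tcirg1, itself a V0 subunit gene. None of the 10 reached 2-fold with vehicle (7.03% of all genes higher and 6.83% lower). Ncoa7, whose product binds the pump, was lowest at -0.73 and Oxr1 was highest at 0.43. limma called 5 of these 10 higher and 2 lower (33.2% and 29.3% of all genes).

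**Figure D4:**
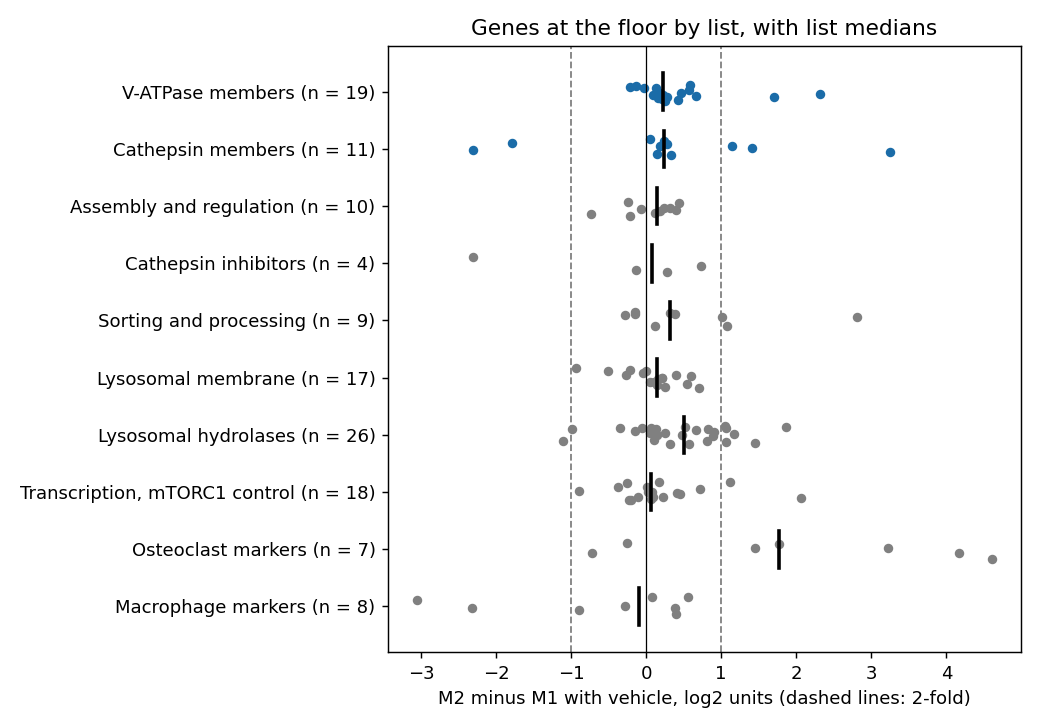
M2 minus M1 difference with vehicle in log2 units (x axis) for genes at the floor on any array, 1 row per list with its number of genes; points are genes, black bars are list medians and dashed lines mark 2-fold. Members are blue. Their medians are 0.23 (V-ATPase) and 0.24 (cathepsins), and lysosomal hydrolases lie further right at 0.50. The assembly and regulation row includes the V0 subunit gene Tcirg1, and the lysosomal membrane row includes Npc2, whose product is soluble.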

How the data were processed

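Gene expression was measured on 4 single-colour Affymetrix arrays of macrophages, 1 per group, and each sample's source name gave its group. The authors deposited log2 signals, 1 per probe set, made by RMA; the submitters' processing notes name Affymetrix Expression Console. Its version is not given in the sources used here, nor is the log base; the range and medians are those of RMA log2 values. RMA sets arrays to a common distribution, removes any global difference and compresses differences among dim signals. Differences among very bright signals may be compressed too. Detection calls were not used here. Precision is limited by the number of arrays.

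GEO's platform annotation gave 1 gene symbol to 21789 of 35556 rows, several to 1621 and none to 12146, and only the first were used. Probe sets of a gene were averaged (3 members had more than 1). All 41 members matched RefSeq (assembly GRCm38.p6) by Entrez number. A difference was called at 2-fold where at least 1 array compared reached the floor of 7.617. limma 3.58.1 (R 4.3.3; lmFit, eBayes with a trend) was fitted on all 10625 genes at the floor on at least 1 array, with Benjamini-Hochberg adjustment, and was tested on simulated data. Array values were given in full for members 2-fold apart and for paralogous subunits. Exceptions were Atp6v1c2 and Atp6v1g3, given as ranges, and Atp6v0a4, given only as under the floor. Differences were given for the 3 highest and 3 lowest IL-1α differences per phenotype, and for the highest and lowest genes per list. Other members, and the genes Lgmn, Lamp1, Lamp2, Tfeb, Mitf, Tfe3 and Ocstamp, are outside that rule and were chosen for their role after their values were seen. Calcr, Oscar, Elane, Prtn3, Flt3 and Siglech are outside it too and were named as list genes under the floor on all arrays. The members, lists and thresholds were chosen with earlier results of these data known. Results were recomputed with 1.5-fold calls, without the floor, with it raised to the 75th percentile (9.63), after loess centring or quantile normalisation of the gene values, with each gene's brightest probe set, and with eBayes robust or lacking its trend. A further promoter motif is not reported here.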

Additional observations from a re-analysis of the deposited data

Results flagged for a closer look

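Ctsf was singled out because its IL-1α differences ran in opposite directions in the phenotypes, each by more than the standard deviation over genes of the M1 pair (0.11). The M2 difference lay inside the standard deviation of its own pair (0.18). It was -0.21 in M1 and 0.14 in M2, a difference of responses of 0.35. The difference was not tested, since each group is 1 array, and the M1 IL-1α value (7.61) lay just under the floor.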

How the results depend on the processing

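The counts of members 2-fold apart between the phenotypes held under the alternatives run. With vehicle, 5 were higher and 2 lower under no floor, loess centring, further quantile normalisation and the brightest probe set, and these were the same 5 and 2 genes. The floor at the 75th percentile left 4 higher, without Ctsf, and the 1.5-fold threshold gave 7, adding Atp6v1c1 and Atp6v1h. The IL-1α differences gave 0 calls under each of these alternatives. limma called 18 to 21 members higher and 3 to 5 lower over its alternatives. The sizes of single differences were recomputed only for the 7 members 2-fold apart. Among these, 1 moved by more than 0.11: Ctsl with IL-1α was 1.46 under loess centring against 1.58. No paired analysis was possible because each group has 1 array and the labels carry no replicate numbers; leaving out an array would leave no residual degree of freedom. Signals near the floor limit Ctsk and Ctsf. Signals near the top of the arrays limit Ctsb, Ctsd, Ctsz and Ctsa in both phenotypes. They also limit Ctsl, Atp6v0d2, Atp6v0a1 and Atp6v1b2 in M2 and Ctsc in M1.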

Other observations

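Genes of lysosomal transcription and of mTORC1 control, the nutrient-sensing kinase complex that sits on the lysosome, were read from a further list. Of 18 at the floor, 2 were 2-fold higher in M2 with vehicle and 0 lower (7.03% and 6.83% of all genes). These were the MiT-family transcription factor Tfec (9.78 in M1 and 11.84 in M2, 2.07 higher) and the small GTPase Rragd (1.11). The amino acid sensor Slc38a9 differed by 0.72. The lowest were the folliculin partners Fnip2 (-0.89) and Fnip1 (-0.38) and folliculin itself, Flcn (-0.25). Tfeb differed by 0.41, Mitf by 0.45 and Tfe3 by -0.20. limma called 8 of the 18 higher and 5 lower (33.2% and 29.3% of all genes), so the lower count was near the background.

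Of 17 genes measured on the lysosomal membrane list, none reached 2-fold between M1 and M2 with vehicle (7.03% of all genes higher and 6.83% lower). Cd63 (0.70), the cystine transporter Ctns (0.59) and the cholesterol exporter Npc1 (0.54) were highest. The chloride-proton exchanger Clcn7 (-0.94), whose loss causes osteopetrosis, Laptm4b (-0.50) and Npc2 (-0.28) were lowest. Npc2 is on the list although its product is a soluble lysosomal protein. The abundant membrane glycoproteins Lamp1 and Lamp2 differed by 0.21 and 0.10. limma called 9 of the 17 higher and 4 lower (33.2% and 29.3% of all genes).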
